A study of Homo sapiens with 2 samples.

Results

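The MYC family and the 8q24 locus were described in CAMA-1 by the open chromatin at MYC, MYCN, MYCL, MAX, MXD1, MXI1 and MNT, at the long noncoding RNA gene PVT1, and in the stretch of chromosome 8 (hg38, chr8:126500001-129500000) that holds MYC and PVT1. The regions were those that overlapped the body of one of the 8 genes, or 20 kb either side of it, and those of the 8q24 stretch. Peaks of the replicates that overlapped by at least 1 bp were merged into regions, and 542 regions with a peak in both replicates met the rule, of 215195 in the genome. Of these, 466 lay in the 8q24 window and 76 around the 6 genes on other chromosomes. Accessibility was measured by ATAC-seq, in which the Tn5 transposase cuts open chromatin and adds sequencing adapters to it. CAMA-1 is an established luminal breast cancer cell line, labelled epithelial, of the mammary gland. It was grown untreated in DMEM with fetal bovine serum, and 2 biological replicates of 50000 cells each formed the only condition, so that no groups were compared.

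MYC is a basic helix-loop-helix leucine zipper transcription factor that drives growth, ribosome production and metabolism, and MYCN and MYCL are its paralogs. Each binds DNA at the E-box CACGTG as a dimer with MAX. MXD1, MXI1 and MNT compete for MAX and for the same sites and recruit corepressors, so they act as antagonists. MYC lies in a large stretch of 8q24 with few protein-coding genes and many enhancers, and PVT1, which lies downstream of it, is often gained together with MYC in breast cancer.

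Replicate 1 held 245736 peaks and replicate 2 held 259745. The strength of a peak is given as its fold enrichment and as its height. The fold enrichment is the ratio of the reads stacked at its highest point to the background of the peak caller. This background was a single value for all peaks of a replicate, not a local one. The height is the number of stacked reads recovered from that ratio. The median height was 35 reads in each replicate, and 95% exact Poisson intervals of heights cover counting error only. The peak lists do not give the sequencing depth. All 10 luminal genes examined, among them ESR1, GATA3, FOXA1 and KRT8, had a peak at a transcription start site (TSS) in both replicates, with a median fold enrichment of 94.2. The 3 basal genes KRT5, KRT14 and TP63 also had one, with a median of 10.3. Of the blood genes, CD14 had a TSS peak while PTPRC and CD3E had none, and of the stromal genes COL1A1 and PDGFRB had one while PECAM1 had none.

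All 8 genes had a peak within 1 kb of an annotated TSS in both replicates. The same held for 79.3% of all protein-coding genes and for 43.8% of all long noncoding RNA genes, so the count by itself does not set the 8 genes apart. Their strengths spread widely, with a median of 94.0 against 52.6 over all protein-coding genes with a TSS peak. PVT1 counted there with the strongest peak at its 132 annotated starts, 267.7, while its most 5′ TSS had 52.1. MYC and PVT1 lie on 8q, where the median TSS peak was 76.4 in replicate 1 and 80.5 in replicate 2. PVT1 led the order, MXD1, MYC and MAX followed, MNT, MXI1 and MYCL were intermediate, and MYCN was the lowest and the only one below the median of all genes.

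**Figure D1:**
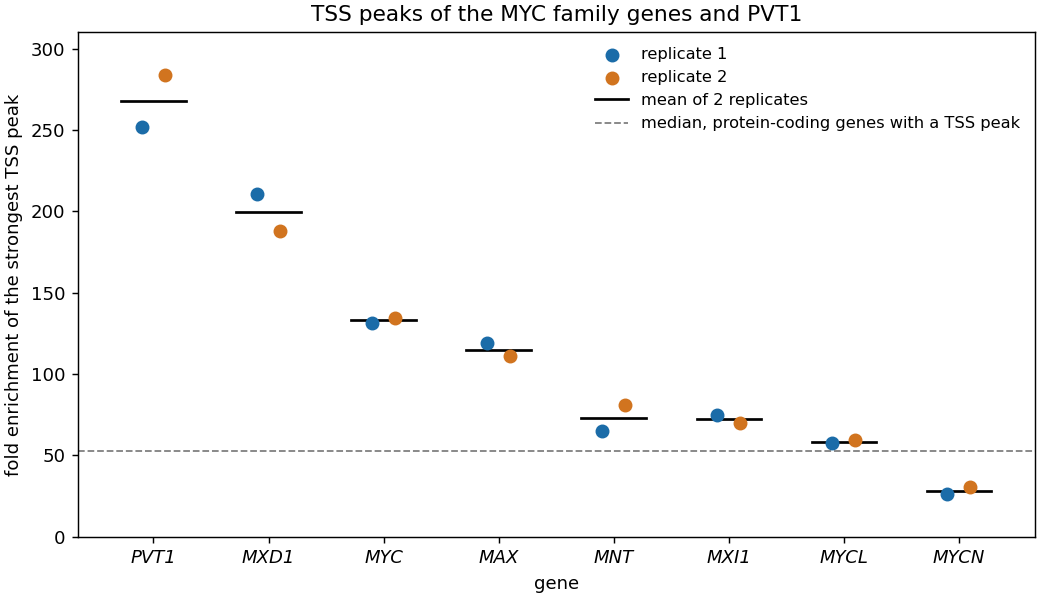
Fold enrichment of the strongest TSS peak of each gene in replicate 1 and replicate 2 (points) with their mean (bar), beside the median over protein-coding genes with a TSS peak (dashed line at 52.6). The genes run from PVT1 at a mean of 267.7 to MYCN at 28.1, and the points of neighbouring genes overlap for MNT and MXI1 alone.

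The strongest TSS peak of MYC had a fold enrichment of 131.6 in replicate 1 and 134.7 in replicate 2. Its mean was 133.1 ± 2.16 (SD, n = 2, as for all means given here). Its height was 571 reads (525 to 620) in replicate 1 and 608 reads (561 to 658) in replicate 2, so the intervals overlapped. MYC stood at percentile 93.3 of the protein-coding genes with a TSS peak in replicate 1 and at 93.6 in replicate 2. Among the genes of its own chromosome arm, 8q, it stood at 83.2 and 82.6. TSS peaks on 8q were stronger as a whole, with a median of 76.4 in replicate 1 and 80.5 in replicate 2, against 51.8 and 53.3 over all chromosomes. DNA copy number was not analysed here, and its part in these strengths was not tested.

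The region at the MYC TSS was a single block of 7375 bp (chr8:127733778-127741152) that held all 14 annotated TSSs of MYC. It began upstream of the gene (chr8:127735434-127742951, plus strand), reached over most of the gene body and took in the start of CASC11, a long noncoding RNA gene on the other strand. Of all 215195 regions, 110 were wider. A second region (chr8:127741345-127743837) took up the rest of the gene and ran past its end, with a fold enrichment of 98.9 in replicate 1 and 113.4 in replicate 2. Together the regions covered 97.4% of the MYC gene.

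Within 20 kb of MYC there were 17 regions, or 35.8 per 100 kb. This density stood at percentile 94.8 among the same windows of all protein-coding genes, of which the median was 11.6. After the promoter and the region over its 3′ part, the strongest lay downstream (chr8:127744899-127746039) with a mean of 60.7 ± 7.07 and upstream (chr8:127725706-127727550) with a mean of 51.8 ± 3.65. The promoter of MYC thus stood among a group of strong regions rather than alone.

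PVT1 gave a different picture. The promoter with most of its starts (chr8:127793693-127796869), which held 58 of its 132 annotated TSSs, had a fold enrichment of 49.9 in replicate 1 and 54.2 in replicate 2, with a mean of 52.1 ± 3.002. The MYC promoter was 2.56 times as strong by the mean. The strongest TSS peak of PVT1 lay far inside the gene (chr8:127857102-127862820) at a single annotated start, with 252.0 in replicate 1 and 283.5 in replicate 2. Its mean of 267.7 ± 22.3 was 5.14 times that of the main promoter, and it stood at percentile 99.8 of the protein-coding genes in replicate 1 and 99.9 in replicate 2. The rank of PVT1 at the head of the 8 genes therefore came from an internal start.

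Further internal starts of PVT1 were also strongly open. The region chr8:127851154-127855291, which held 9 TSSs, had fold enrichments of 206.9 and 207.4, and the region chr8:128024031-128028758, at a single TSS, had 166.1 and 180.7. In all, 28 regions of both replicates lay within 1 kb of a PVT1 start, and 118 of the 132 starts had a peak within 1 kb in both replicates. The same was true of 90.4% of all positions along PVT1, so the starts did not stand out from the rest of the gene by this count. A gene with so many annotated starts has more chances to hold a strong TSS peak than a gene with few.

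MAX, the shared partner of the family, had a fold enrichment of 119.2 in replicate 1 and 110.8 in replicate 2 at its TSS region (chr14:65102204-65103754). Its mean was 115.0 ± 5.94, at percentile 90.7 and 87.5 in the replicates. The values of MAX lay below those of MYC in both replicates and above those of all genes further down the order. The region held 13 of the 14 annotated starts of MAX. In the rest of its window of 16 regions, the strongest one away from any TSS (chr14:65070087-65070965) had a mean of 62.8 ± 5.57, or 0.547 times the TSS peak.

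The paralogs of MYC were less open at their starts. MYCL had 57.3 in replicate 1 and 59.3 in replicate 2 (chr1:39901029-39902591), with a mean of 58.3 ± 1.39, close to the middle of all protein-coding genes at percentile 56.0 and 56.3. MYCN had 26.0 and 30.3 (chr2:15939551-15941147), with a mean of 28.1 ± 3.04 at percentile 24.1 and 27.8. The MYC promoter was 2.28 times as strong as that of MYCL and 4.73 times as strong as that of MYCN. MYCL and MYCN have 3 annotated starts each, while MYC has 14, all in a single region. In replicates 1 and 2, the median TSS peak was 76.4 and 80.5 on 8q. It was 48.8 and 49.5 on 1p, the arm of MYCL, and 54.6 and 55.4 on 2p, the arm of MYCN. The part of these differences in the ratios was not tested.

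MYCN was the gene among these whose promoter was weakest beside its surroundings. A region 21178 bp from its nearest own TSS (chr2:15964735-15965529) had a fold enrichment of 63.3 in replicate 1 and 65.7 in replicate 2. Its mean of 64.5 ± 1.70 was 2.29 times that of the promoter. A region at the start of MYCNUT, a noncoding RNA gene upstream of MYCN (chr2:15919427-15921144), had a mean of 62.3 ± 3.51. At MYCL, the strongest region away from any TSS (chr1:39919533-39919931) had a mean of 55.9 ± 1.30, or 0.959 times the promoter. The strongest open chromatin of the MYCN window thus lay outside the promoter, while that of MYCL was nearly equal at the promoter and away from it.

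Of the antagonists, MXD1, which is known as a MAX partner of differentiating cells, was the most open. Its TSS peak had a fold enrichment of 210.5 in replicate 1 and 188.0 in replicate 2 (chr2:69914088-69915964). The mean was 199.2 ± 15.96, at percentile 99.2 and 98.7 of the protein-coding genes. Its height was 914 reads (856 to 975) in replicate 1 and 849 reads (793 to 908) in replicate 2. The MXD1 promoter exceeded that of MYC in both replicates, and it was 7.08 times as strong as that of MYCN by the mean.

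The open chromatin of MXD1 was concentrated at that promoter. The region covered 3 of its 5 annotated starts, and the most upstream start, 16.4 kb before it, had no region within 3426 bp. Only 6 regions lay in its window, or 7.04 per 100 kb, which was percentile 31.1 of all such windows. The strongest region away from any TSS had 8.97 in replicate 1 and 10.6 in replicate 2, or 0.0492 times the promoter. MXD1 had the second strongest TSS peak of the 8 genes and the fewest regions in its window.

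MXI1, a further antagonist of the same family, had several open starts of unequal strength. The promoter at the beginning of the gene (chr10:110207339-110208970) had 72.9 in replicate 1 and 70.1 in replicate 2. A promoter inside the gene (chr10:110225509-110227637), with 29 of the 37 annotated starts, had 56.1 and 62.4. A start between them lay in a weaker region (chr10:110209071-110210418) with 15.9 and 14.8. A further region (chr10:110210676-110211752), which covered no start but lay within 1 kb of one, had 74.8 in replicate 1 and 69.7 in replicate 2. Since the strongest peak was a different one in each replicate, the mean of 72.4 ± 3.31 for MXI1 joins both.

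MNT, the antagonist found in most cell types, also had more than 1 strong start. The promoter at its 5′ end (chr17:2398773-2402444) had 61.4 in replicate 1 and 64.3 in replicate 2. A region further inside the gene at a single start (chr17:2395357-2397682) had 64.9 and 81.2. This was the least even pair of the 8 genes relative to its mean, which was 73.0 ± 11.5. MNT and MXI1 could not be ordered, since the values of MXI1 lay within the range of those of MNT. The values of all other neighbours in the order of the 8 genes did not overlap between genes, although 2 replicates give no more than a rough measure of the spread.

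The promoters of the antagonists and of MYCN are shown as RefSeq gives them (GRCh38.p14), since MXD1 and MYCN were the extremes among the promoters outside the MYC locus and MXI1 had 3 starts. Each line holds the part of the 250 bases before the start that lies in no annotated exon, 5′ to 3′ along the gene. Capitals mark matches to the E-box CACGTG, the FOX motif TGTTTAC, the GATA motif AGATAA, the AP-1 motif TGANTCA, the AP-2 motif GCCNNNGGC, the ETS motif CCGGAAG and the CTCF core CNAGGGGGC, each searched on both strands. The lines come from chr17:2401105-2401310 (minus strand) for MNT and, on the plus strand, from chr2:69914859-69915040 for MXD1, chr2:15940352-15940549 for MYCN, and chr10:110207355-110207604, chr10:110209981-110210230 and chr10:110225746-110225992 for MXI1.
MNT: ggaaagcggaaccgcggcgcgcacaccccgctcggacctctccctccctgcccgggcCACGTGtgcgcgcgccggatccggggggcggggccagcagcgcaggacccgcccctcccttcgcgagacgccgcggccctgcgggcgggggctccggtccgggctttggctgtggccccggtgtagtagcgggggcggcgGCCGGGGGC
MXD1: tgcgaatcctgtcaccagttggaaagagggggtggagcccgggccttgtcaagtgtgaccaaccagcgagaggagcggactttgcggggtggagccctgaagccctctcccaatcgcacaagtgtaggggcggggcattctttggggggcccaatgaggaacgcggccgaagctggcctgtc
MYCN: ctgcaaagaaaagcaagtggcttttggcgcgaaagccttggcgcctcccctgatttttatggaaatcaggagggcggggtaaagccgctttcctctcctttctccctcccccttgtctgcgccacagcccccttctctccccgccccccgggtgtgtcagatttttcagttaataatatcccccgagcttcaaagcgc
MXI1, first start: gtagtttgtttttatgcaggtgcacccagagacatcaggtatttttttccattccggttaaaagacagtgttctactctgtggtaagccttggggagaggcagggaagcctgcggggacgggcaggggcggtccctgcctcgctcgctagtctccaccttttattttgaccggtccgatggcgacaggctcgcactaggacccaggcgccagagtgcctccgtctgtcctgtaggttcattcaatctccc
MXI1, middle start: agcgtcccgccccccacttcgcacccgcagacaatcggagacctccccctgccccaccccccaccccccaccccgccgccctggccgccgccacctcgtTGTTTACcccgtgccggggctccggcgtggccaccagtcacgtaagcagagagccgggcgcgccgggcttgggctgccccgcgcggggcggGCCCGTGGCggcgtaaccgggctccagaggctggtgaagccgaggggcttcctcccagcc
MXI1, inner start: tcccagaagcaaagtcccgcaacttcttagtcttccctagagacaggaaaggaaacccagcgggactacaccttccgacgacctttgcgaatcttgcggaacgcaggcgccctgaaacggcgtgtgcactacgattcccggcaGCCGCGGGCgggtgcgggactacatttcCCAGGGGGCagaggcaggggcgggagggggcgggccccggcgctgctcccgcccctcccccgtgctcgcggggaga

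The stretch of MNT was the single one of these 6 with an E-box, 193 bases before the start, and it also held an AP-2 match 53 bases before it. Over all 35116 RefSeq promoters of 300 bases, 7.26% held an E-box and 23.2% an AP-2 match. The middle start of MXI1 had a FOX match at 151 bases and an AP-2 match at 60 bases before it, and the inner start had an AP-2 match at 107 and a CTCF core at 79 bases. The FOX motif was in 3.42% of all promoters and the CTCF core in 3.50%. The stretches of MXD1, MYCN and the first start of MXI1 held none of the motifs, which says only that these letters are absent from these windows. In bases, MNT was the richest in G and C at 80.6%, MXD1 had 63.2%, MYCN 56.1% and the first start of MXI1 55.6%.

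E-boxes were also counted over the whole TSS regions, which differ in width. The MAX region of 1551 bp held 3, the first MNT region of 3672 bp held 3 and the MXD1 region of 1877 bp held 1. The MYC region of 7375 bp held 0, as did the MYCL region of 1563 bp, the MYCN promoter region of 1597 bp and all MXI1 regions. For PVT1, which had 28 such regions, the main promoter of 3177 bp held 1 and the strongest TSS region of 5719 bp held 1. MAX, MNT, MXD1 and PVT1 thus had an E-box in an open TSS region, and MXI1, MYC, MYCL and MYCN did not. The strongest TSS region of MNT (chr17:2395357-2397682) held 0. Over the genome, 8.45% of all regions held an E-box in their whole length, at a median width of 363 bp. With so few regions this is a description and no test.

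The 8q24 window held 537 peaks in replicate 1 and 583 in replicate 2. They formed 611 regions, of which 466 were in both replicates, 48 in replicate 1 alone and 97 in replicate 2 alone. This gave 155 regions per Mb, 2.10 times the 73.9 per Mb of the genome. It stood at percentile 92.3 of 951 consecutive windows of 3 Mb over the genome. Of the 31 windows on 8q that share no base with it, 2 were denser.

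The regions of the window were not stronger as a whole. Their median fold enrichment was 9.08, against 9.84 over the genome and 9.01 on 8q, which placed the window at percentile 29.3 of the 951. A fold enrichment below 10 was found for 51.7% of them and for 50.5% of all regions. They were wider, with a median of 438 bp against 363 bp, and they covered 10.9% of the window against 3.91% of the genome. By the median, the excess was therefore in the number and width of the regions, while 3.86% of them were among the strongest 1% of all regions.

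The regions lay in a steep profile around PVT1. The 1235 kb upstream of MYC held 140 regions, or 11.3 per 100 kb. The 51.6 kb between MYC and PVT1 held 21, or 40.7 per 100 kb, and PVT1 itself held 193, or 49.2 per 100 kb. The 1313 kb downstream of PVT1 held 109, or 8.30 per 100 kb. PVT1 takes up 13.1% of the length of the window and held 41.4% of its regions, which covered 45.6% of the gene. Windows as dense as that of PVT1 with its flanks, at 48.3 regions per 100 kb, were rare, since it stood at percentile 99.2 of the windows of protein-coding genes.

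**Figure D2:**
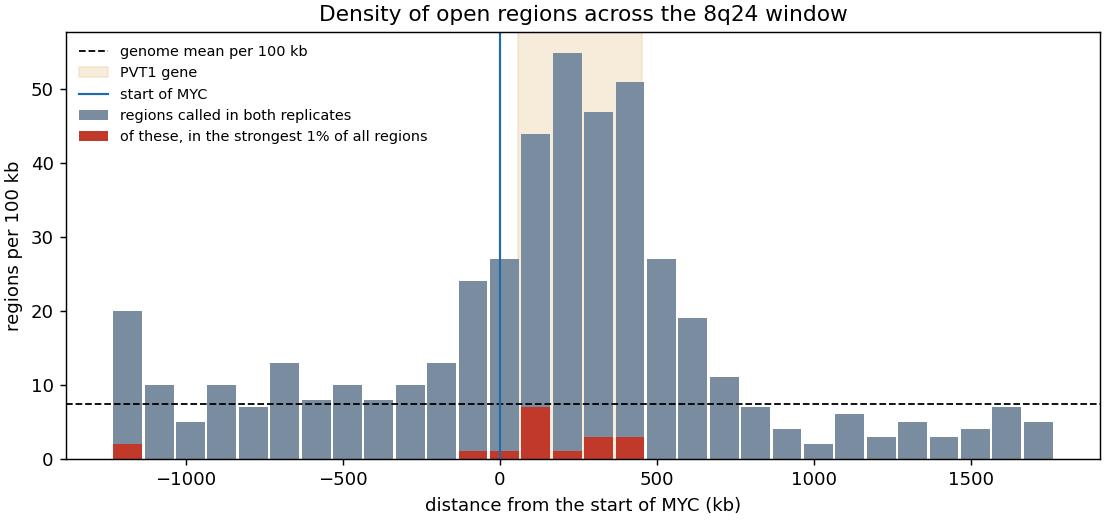
Number of regions called in both replicates per 100 kb along the 8q24 window, against the distance from the start of MYC in kb, with those among the strongest 1% of all regions in red, PVT1 shaded and the genome mean per 100 kb dashed. The bars rise to 55 regions inside PVT1 and fall to 2 in the lowest one, on the far side of PVT1.

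The strongest regions were concentrated in PVT1 as well. Over the genome, 1.00% of the regions with a peak in both replicates had a mean fold enrichment of at least 121.3, by construction. In the 8q24 window 18 of 466 did, or 3.86% (95% Wilson interval 2.46 to 6.02, counting error only), and on all of 8q it was 154 of 8458, or 1.82%. Of the 18 regions, 14 lay in PVT1, 3 upstream of MYC and 1 was the MYC promoter. None lay between MYC and PVT1 or downstream of PVT1. Of the 951 windows, 18 held more such regions, and the largest number was 52.

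The MYC promoter was the weakest of these 18 regions. The next one below it (chr8:127900367-127901314) had a mean of 119.6 and also lay in PVT1. Of the 17 regions above the MYC promoter, 11 lay over 1 kb from any annotated TSS. This was a smaller share than the 87.8% of all regions of the window.

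**Figure D3:**
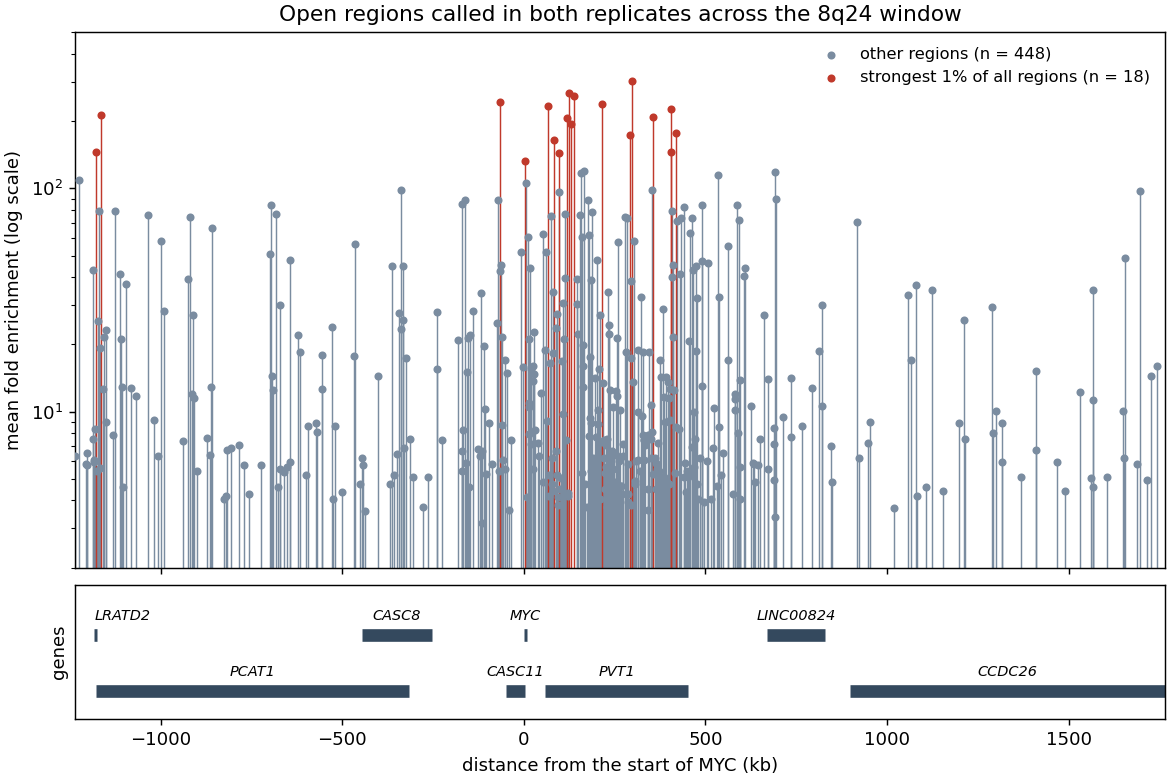
Mean fold enrichment on a log axis of each of the 466 regions called in both replicates of the 8q24 window, against the distance from the start of MYC in kb, with selected genes below. The 18 regions among the strongest 1% of all regions (red) include 14 in PVT1, and the remaining 448 are grey.

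The strongest region of the window lay in PVT1, 295.0 kb from the nearest MYC TSS and 3620 bp from the nearest start of any gene (chr8:128032042-128036027). Its height was 1199 reads (1132 to 1269) in replicate 1 and 1477 reads (1403 to 1554) in replicate 2, and the intervals did not overlap. Its fold enrichment was 276.1 and 326.8, with a mean of 301.5 ± 35.9. In all the genome, 8 regions had a higher mean. It was 2.10 times as strong as the MYC promoter in replicate 1 and 2.43 times in replicate 2.

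Of the 10 strongest regions, 8 lay in PVT1, which held 41.4% of all regions of the window. Over 1 kb from any TSS lay 6 of the 10, a smaller share than the 87.8% of all regions of the window. The second was the internal start of PVT1 given above. The third (chr8:127869208-127880410) was the widest of the window at 11203 bp, with fold enrichments of 257.0 and 263.6, and overlapped no annotated exon. Over the genome 25 regions were wider. The window held 10 of the 517 regions of over 4 kb.

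The fifth (chr8:127947896-127952881), with 235.6 and 242.6, lay at the start of LINC02912, a noncoding RNA gene inside PVT1. The sixth (chr8:127799145-127803153), with 231.2 and 235.9, lay 3112 bp from the nearest PVT1 start, just past the main promoter. The seventh (chr8:128140575-128142788), with 221.1 and 233.1, lay 7328 bp from MIR1208, the last of the microRNA genes of PVT1. The ninth (chr8:128090496-128092829), with 203.9 and 212.7, and the tenth, the start with 9 TSSs, completed the regions of PVT1. All of these were higher in replicate 2 than in replicate 1.

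The other 2 lay upstream of MYC. Nearer to the gene, a region (chr8:127667755-127670428) lay 66.3 kb before the nearest MYC TSS, over a long noncoding RNA gene without a symbol and 562 bp from its start. It had 252.6 in replicate 1 and 234.0 in replicate 2, and was the only one of the 10 that was lower in replicate 2. Much further away, the eighth (chr8:126569366-126572197) lay 1165 kb before MYC in an intron of PCAT1, a noncoding RNA gene known from prostate cancer, with 209.6 and 216.5. Between these, over more than 1 Mb, no region reached the strongest 1%.

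Of the other genes named in the window, 9 were long noncoding RNA genes, PVT1 included, and 7 of these had a TSS peak in both replicates, against 43.8% of all such genes. PCAT1 shares a start region with the protein-coding gene LRATD2, at 135.5 in replicate 1 and 155.0 in replicate 2. CASC11 shares the region of MYC. LINC00824 had 109.5 and 126.7, CCAT2 had 26.9 and 24.8, and CASC19 had 23.01 and 24.99. CCDC26 reaches past the end of the window, and its strongest TSS peak, with 54.8 and 57.3, lay outside it, while the strongest at its 13 starts inside had 12.4 and 12.2. PRNCR1 and CASC8 had no TSS peak. The number of annotated starts differed widely among these genes, from 1 for CCAT2 and PRNCR1 to 76 for CCDC26 and 132 for PVT1.

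Of the 3 protein-coding genes, LRATD2 and MYC had a TSS peak in both replicates and POU5F1B, a retrogene of the stem cell factor OCT4, had one of 5.75 in replicate 1 alone. All 5 microRNA genes of PVT1 had a peak within 1 kb of their start in both replicates, against 38.4% of all microRNA genes and, as given above, 90.4% of the positions along PVT1. MIR1204 lies in the main promoter of PVT1 and shares its values. The others had weaker peaks, with 11.5 and 8.40 for MIR1207 and 14.5 and 10.4 for MIR1208. For MIR1205, with 5.98 and 8.18, and for MIR1206, with 6.90 and 8.62, the strongest peak was a different one in each replicate. The start of a microRNA gene in the annotation is that of the hairpin and need not be where transcription begins.

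Most regions of the window lay far from promoters. Of the 466, 343 lay over 3 kb from any annotated TSS, or 73.6% (95% Wilson interval 69.4 to 77.4), against 65.9% of all regions. The distal regions were 122 of the 193 in PVT1, 104 of the 140 upstream of MYC, 20 of the 21 between MYC and PVT1, and 97 of the 109 downstream. PVT1 has 132 annotated starts, and their part in its lower share was not tested.

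**Figure D4:**
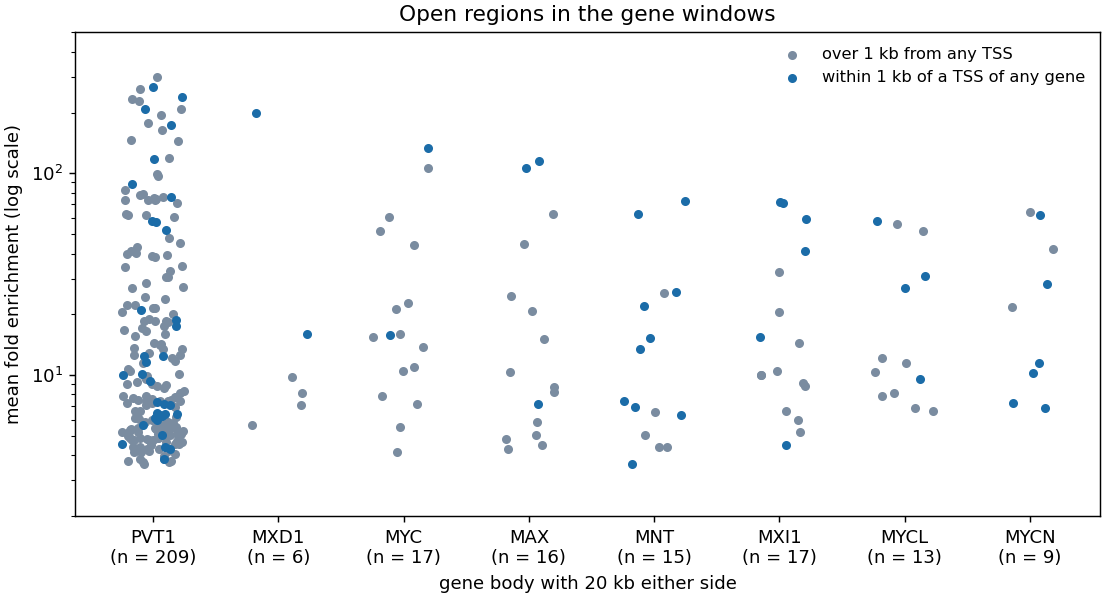
Mean fold enrichment on a log axis of every region called in both replicates in the window of each gene (gene body with 20 kb either side), in blue where the region lies within 1 kb of a TSS of any gene and in grey elsewhere. MXD1 shows a single strong point at 199.2 above 5 weak ones, while the 209 regions of PVT1 run up to 301.5.

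The windows of the 8 genes differed in the number of their regions. PVT1 had 209, MYC and MXI1 had 17 each, MAX 16, MNT 15, MYCL 13, MYCN 9 and MXD1 6. Per 100 kb, MYCL had 27.8 and MNT 26.3, at percentiles 87.1 and 85.0. MYCN had 19.4, at percentile 72.0. MXI1 had 14.2 and MAX 11.7, close to the median of 11.6. By this measure PVT1 and MYC were the densest of the 8, and MXD1 was the only one well below the median.

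The windows also differed in the strength away from any TSS relative to the strongest TSS peak of the gene. In PVT1 the strongest region over 1 kb from any TSS was 1.13 times the strongest TSS peak, and in MYC it was 0.798 times. MXI1 had 0.447 and MNT 0.351. MYCN, with the weakest promoter of the 8 genes, had the highest of these ratios, MXD1 had the lowest, and PVT1 was high by both measures. The ratio of PVT1 was taken to its internal start, while its main promoter had a mean of 52.1.

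The regions of the 8 genes were searched for short motifs in the 300 bp around the midpoint of each, since the peak lists give no summits. The E-box was in 4.06% of the 542 regions and in 4.79% of all regions. The GATA motif was in 16.1% against 14.3% of all, the AP-1 motif in 16.2% against 13.5%, and the FOX motif in 5.72% against 7.37%. The order turned with the length searched for AP-1, which was in 5.35% against 5.84% in the central 100 bp, and for FOX, which was in 11.1% against 10.3% of whole regions. The AP-2 motif was in 11.8% against 15.6%, and the ETS motif in 0.923% against 2.21%. An estrogen response element with no mismatch was in 0 of the 542 regions, and in 0.0902% of all. Over whole regions it was in 0.184% against 0.135%, and so small a share of 542 regions stands for very few of them.

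The CTCF core was in 3 of the 542 regions, or 0.554%, against 2.04% of all regions. Of the 466 regions of the 8q24 window a single one held it, in PVT1. Among distal regions alone, it was in 1 of the 343 of the window, or 0.292%, against 1.71% of all distal regions. Distal regions of the window held the AP-1 motif in 18.1%, against 14.9% of all distal regions, the GATA motif in 17.8% against 16.1%, and the AP-2 motif in 9.04% against 13.2%. These shares are descriptions of exact letters, without a test, and regions of 1 locus are not independent of each other.

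The replicates were close across the window. Of the peaks of replicate 1 in the window, 489 of 537 were found again in replicate 2, or 91.1% (88.3 to 93.2), against 90.2% of all peaks of replicate 1. Of those of replicate 2, 486 of 583 were found again, or 83.4% (80.1 to 86.2), against 84.7%. The peaks not found again were weak, with at most 5.75 in replicate 1 and 6.41 in replicate 2. Over the 466 regions the fold enrichments of the replicates had a Spearman correlation of 0.948 and a Pearson correlation of 0.995, given as a description across regions that share their libraries.

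**Figure D5:**
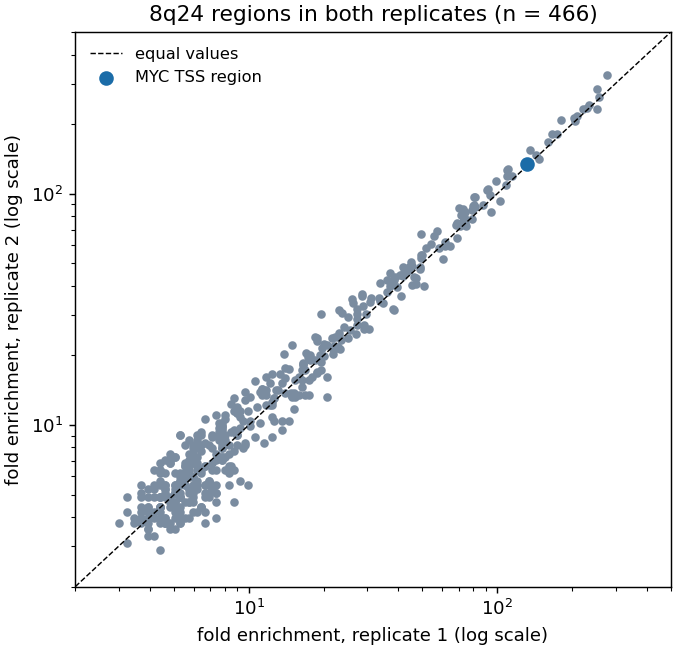
Fold enrichment in replicate 2 against replicate 1 on log axes for the 466 regions of the 8q24 window, with equal values dashed and the MYC TSS region in blue. The points follow the dashed line, and 289 of them lie above it.

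The wider network of MYC was examined by a list of 30 further genes, of which 29 had a TSS peak in both replicates, against 79.3% of all protein-coding genes. All 6 further partners and antagonists had one. MXD4 had 194.0 in replicate 1 and 170.7 in replicate 2, MXD3 had 122.6 and 115.2, and MLXIPL, which senses glucose with MLX, had 62.6 and 69.9. MGA had 39.3 and 38.9, MLXIP had 32.7 and 27.9, and MLX had 21.4 and 21.9. As with MXD1, the MXD genes had the strongest promoters of the group, while their median over the 6 was 52.7, near that of all genes.

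All 12 cofactors and regulators of MYC stability had a TSS peak in both replicates, with a median of 66.5. SKP2, a ubiquitin ligase subunit that acts on MYC, was the highest with 144.7 and 163.6, and FBXW7, which marks MYC for degradation, had 105.1 and 105.3. WDR5, a chromatin scaffold that binds MYC, was the lowest with 13.1 and 12.4. Of 12 target genes, 11 had one, with a median of 58.4. NCL, which encodes nucleolin, had 114.6 and 99.5, and ODC1, the first enzyme of polyamine synthesis, had 52.2 and 59.9. TERT, which encodes telomerase reverse transcriptase, had 4.14 and 3.98, and CCND2 was the gene of the list without a TSS peak.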

How the data were processed

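Peak lists from ATAC-seq of 2 biological replicates of CAMA-1 were analysed. The authors trimmed the reads, aligned them to hg38 and called peaks in each replicate separately, and the submitters' processing notes name Trim Galore 0.6.5, Bowtie2 2.3.5.1 and MACS2 2.2.6. The settings of the peak caller and the treatment of duplicate reads are not given in the sources used here. For every peak the authors deposited a fold enrichment, which is a ratio to a background, a score, and the p-value and q-value as −log10. The deposited score repeats the q-value (its −log10 multiplied by 10, without decimals) in 100% of peaks. All fold enrichments were whole multiples of a step of 0.230 in replicate 1 and 0.221 in replicate 2, to within 8.13e-05 of a step, and this gave a background of 3.35 and 3.52 reads and the height of each peak. Neither depth nor summits are in the lists. Depth bears on which weak peaks pass the threshold, and the lowest height was 11 reads in both replicates.

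Genes and TSSs came from GENCODE release 44 on hg38. Peaks overlapping by at least 1 bp were merged, and regions with a peak in each replicate were kept. A TSS peak lay within 1 kb of any annotated TSS, and the strongest one by fold enrichment stood for the gene. Windows of 3 Mb were used where at least 90% of the bases were known. Chromosome arms were divided at the widest stretch without peaks. With a single condition no test between groups was made, and values are given per replicate with mean and SD.

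The genes, the gene lists and the motifs were chosen with earlier results of these data known. The named items are the 8 genes, the 10 strongest regions of the 8q24 window, the strongest TSS region and the strongest region over 1 kb from any TSS of each gene, and a fixed list of genes of the window. Further regions beside these, the strongest 1% of regions and the widths over 4 kb were chosen after their values were seen. The 5 listed genes PCAT2, CCAT1, TMEM75, LINC00977 and GSDMC were not matched in the window and not analysed here. Some genes of the lists are not reported here by name. Promoter sequences were taken from RefSeq (GRCh38.p14). As alternatives, peaks with −log10 q below 10 were dropped, or just the 50000 strongest used, the overlap was set to 50% of both peaks, distances, TSS sets, flanks and motif windows were varied, and single replicates were left out. Merging, TSS calls, recovery of heights and the motif search were tested on simulated data with known answers. Python 3.11.15, numpy 2.4.6, pandas 2.3.3, scipy 1.17.1 and matplotlib 3.10.9 were used.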

Additional observations from a re-analysis of the deposited data

How the results depend on the processing

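The 32 results were recomputed under 105 alternatives in all, of which 73 left the value within its spread (for counts, within 1.5 times the main count) and 32 moved it further. For the TSS strengths, leaving out 1 replicate could not move the value, because each of 2 values lies within 1 SD of their mean. Ranking by −log10 q gave nearly the same percentiles, as it orders peaks as the fold enrichment does. These alternatives are therefore no check of the TSS strengths and percentiles. When each gene was represented by its most 5′ TSS, 7 of the 8 genes kept a TSS peak, as MXD1 lost its own, and the mean for PVT1 was 52.1 in place of 267.7. Among the genes of its arm the mean percentile was 82.9 for MYC (93.4 among all genes) and 99.2 for PVT1 (99.9 among all genes). The 8q24 window held 118 regions, in place of 466, when the 50000 strongest peaks of each replicate were used, and 344 to 583 under its other alternatives. The windows of the 8 genes held 229 to 371 regions in place of 302. Its density relative to the genome, 2.10, was 2.03 without peaks of −log10 q below 10, 2.46 with the 50000 strongest peaks, 2.79 by bases covered, 2.03 in a wider window of 4 Mb, and 2.12 to 2.18 with 1 replicate left out. The share of peaks found again was 90.3% for replicate 2 without those weak peaks, and with a reciprocal overlap of 50% it was 81.2% for replicate 1 and 74.8% for replicate 2. The distal share was 87.8% for over 1 kb, 43.1% for over 10 kb and 98.3% with TSSs of protein-coding genes alone. Without the weak peaks, 28 of the 30 network genes kept a TSS peak. Motif shares followed the length searched, which turned the order of the 8 genes' regions and all regions for AP-1 (100 bp), FOX and the estrogen response element (whole regions). For the estrogen response element the turn rests on very few regions. The E-box was in 7.75% of whole regions and in 1.29% of the central 100 bp. No paired analysis was possible because the study has 1 condition. Since 2 replicates were available, the SDs are rough, and the depth of the libraries limits the calls of the weakest peaks.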

Other observations

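The longest stretches without a region in both replicates in the 8q24 window lay downstream of PVT1, with 72.2 kb (chr8:128951711-129023928), 69.3 kb (chr8:128583968-128653250), 64.7 kb (chr8:128689327-128754057) and 56.4 kb (chr8:129146146-129202555). The next, of 51.2 kb, lay upstream of MYC (chr8:126744882-126796073).

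In the 8q24 window replicate 2 had the higher fold enrichment in 289 of 466 regions, or 62.0%, against 58.4% of the regions of 8q and 55.6% of all regions. The median log2 ratio of replicate 2 to replicate 1 was 0.06 in the window and 0.03 over all regions.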
